A study of Homo sapiens with 15 samples.

Results

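The troponin subunits were followed by bulk RNA sequencing through the cardiac differentiation of H1, an established human embryonic stem cell line. Their 8 genes were picked out by gene symbol from the 60605 genes of the table. All kinds of subunit are covered. The tropomyosin-binding subunit was represented by TNNT2 (cardiac form), TNNT1 (slow skeletal form) and TNNT3 (fast skeletal form). The inhibitory subunit was represented by TNNI3 (cardiac form), TNNI1 (slow skeletal form) and TNNI2 (fast skeletal form). The calcium-binding subunit was represented by TNNC1, which cardiac and slow skeletal muscle share, and by TNNC2, the fast skeletal form.

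Wild-type cells in all groups received the WNT activator CHIR99021 on day 0, which turned them toward mesendoderm, and insulin on day 1. Days 0, 1 and 2 had 1 library each, common to all arms. From day 2 on, NP-ctrl cells were left in static culture with no inducer (NP, not passaged). NP-IWP2 cells were left in static culture and given IWP2, an inhibitor of WNT secretion, from day 2 but no longer from day 5 on. Passaged cells were detached with EDTA on day 2 and replated with the ROCK inhibitor Y27632 but with no WNT inhibitor. Days 3, 5, 7 and 10 were each sampled once per arm. This gave 15 libraries in total, none with a replicate culture. The comparisons ask how far passaging, or WNT inhibition, moved each subunit gene away from its level in static culture.

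Troponin sits on the thin filament of striated muscle and makes contraction depend on calcium. The calcium-binding subunit senses the ion, the inhibitory subunit holds actin and myosin apart until calcium arrives, and the tropomyosin-binding subunit anchors the complex. Each subunit is encoded by separate genes for different muscle types. In the embryonic heart the inhibitory subunit is mainly the slow skeletal form, TNNI1, which is replaced by the cardiac form, TNNI3, as the heart matures.

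The libraries held between 13254723 and 20250115 counts (median 15269132). Levels are given as FPKM, the count divided by exonic length and library total. At most 3 counts is treated as the floor below which no level is read. The 95% intervals are exact and cover counting error only, because no library had a replicate culture. They treat each count as a separate molecule, which PCR copies are not. Mitochondrial genes took a share of counts that ran from 1.53% in the passaged library of day 3 to 10.3% in the passaged library of day 10. Ratios between arms taken per nuclear count differed from those of FPKM by a factor of at most 1.07. Because these are bulk samples, more cells of a type and more RNA per cell cannot be told apart. The kit named for library preparation is a long-read kit whereas the processing tools are those for short reads, so levels scaled by gene length carry that doubt.

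The 8 genes lie on 5 chromosomes (GRCh38). TNNT2 (ENSG00000118194, chromosome 1, 201359008 to 201377764) and TNNI1 (ENSG00000159173, chromosome 1, 201403768 to 201429866) lie on the minus strand, 26003 bases apart with LAD1 between them. TNNI3 (ENSG00000129991, chromosome 19, 55151767 to 55157773) and TNNT1 (ENSG00000105048, chromosome 19, 55132698 to 55149206) lie on the minus strand, 2560 bases apart. TNNI2 (ENSG00000130598, chromosome 11, 1838981 to 1841680) and TNNT3 (ENSG00000130595, chromosome 11, 1919703 to 1938706) lie on the plus strand, 78022 bases apart. TNNC1 (ENSG00000114854, chromosome 3, 52451100 to 52454041) and TNNC2 (ENSG00000101470, chromosome 20, 45823214 to 45833745), both on the minus strand, have no partner of this kind.

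TNNT2, TNNT1 and TNNI3 were the 3 of 8 members with a promoter in the RefSeq table (GRCh38.p14), and their patterns over time differed from one another. TNNT2 was higher on day 10 than on day 3, TNNT1 was lower, and TNNI3 dipped on day 5. The 250 bases before each RefSeq start are shown 5′ to 3′ on the strand of the gene, all on the minus strand, and capitals mark matches to the motifs searched. They cover chr1:201377681-201377930 for TNNT2, chr19:55149207-55149456 for TNNT1 and chr19:55157733-55157982 for TNNI3. For TNNT2 and TNNI3 the RefSeq start lies inside the Ensembl gene.
TNNT2: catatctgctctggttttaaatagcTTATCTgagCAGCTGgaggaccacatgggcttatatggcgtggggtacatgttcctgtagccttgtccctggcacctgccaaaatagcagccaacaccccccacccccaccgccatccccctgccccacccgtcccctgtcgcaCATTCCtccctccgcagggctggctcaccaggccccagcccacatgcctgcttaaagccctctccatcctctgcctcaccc
TNNT1: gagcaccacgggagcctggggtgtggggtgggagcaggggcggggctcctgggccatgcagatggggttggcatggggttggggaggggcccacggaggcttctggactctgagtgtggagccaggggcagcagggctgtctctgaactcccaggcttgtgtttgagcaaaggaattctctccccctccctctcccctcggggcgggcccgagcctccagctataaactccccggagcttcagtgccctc
TNNI3: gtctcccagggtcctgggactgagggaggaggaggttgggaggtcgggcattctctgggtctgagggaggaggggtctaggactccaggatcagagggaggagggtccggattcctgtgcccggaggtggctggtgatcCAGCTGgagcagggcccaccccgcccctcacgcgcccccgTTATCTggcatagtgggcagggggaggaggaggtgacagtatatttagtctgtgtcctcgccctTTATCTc
The motifs searched, on both strands, were the GATA element (AGATAA or TGATAA), the M-CAT element (CATTCC), the E-box CAGCTG, the CArG box and the MEF2 element. The TNNT2 window held a GATA element 225 to 220 bases before the start, an E-box at 216 to 211 and an M-CAT element at 81 to 76. The TNNI3 window held an E-box at 111 to 106 and GATA elements at 71 to 66 and at 7 to 2. The TNNT1 window held none of the 5 motifs. No match overlapped another. Of all 35116 RefSeq promoter windows of this length, 14.6% held the GATA element, 14.0% the E-box, 11.9% the M-CAT element, 2.80% the MEF2 element and 1.16% the CArG box. A match describes letters, not binding.

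In stem cells and early mesendoderm the troponin genes with the highest FPKM were TNNT1 and TNNI3. TNNT1 was at an FPKM of 10.8 on day 0, 7.65 on day 1 and 16.6 on day 2. TNNI3 was at 1.80, 1.31 and 1.48 on these days, from 49 to 62 counts per library. TNNC2 was close to TNNI3 on day 0, at 1.67 (1.07 to 2.48, 24 counts), and at 0.38 and 0.64 on days 1 and 2. TNNT2 (1 to 10 counts), TNNI1 (12 to 28 counts) and TNNC1 (4 to 13 counts) were each below an FPKM of 1.

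Between days 3 and 10 the set turned over. TNNT2, TNNI1 and TNNC1 rose and TNNT1 fell, in the fit of day and arm over the 12 libraries of days 3 to 10 by the quasi-likelihood test of edgeR. In this fit the 3 arms serve as the repetition, so the error is the spread between arms of 1 series of cultures. Of the 6 members that passed the filter of an FPKM of at least 1 in some library, 3 were called higher and 1 lower on day 10 than on day 3. Over all 21206 genes tested 35.0% were called, 17.9% higher and 17.1% lower. TNNT3 and TNNI2 did not pass the filter. The call for each of these 4 genes held under every alternative fit that was run.

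**Figure D1:**
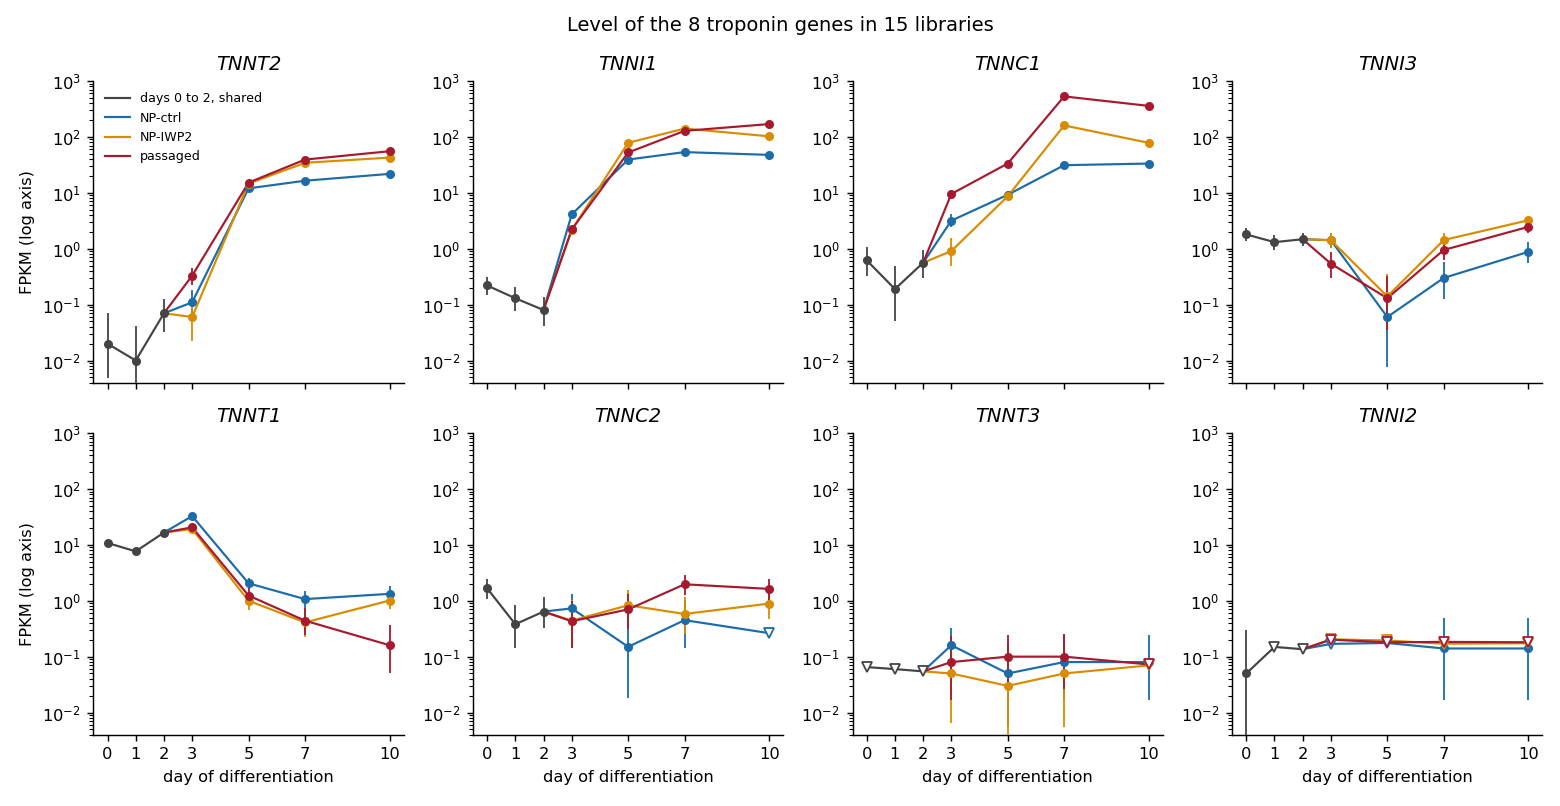
FPKM (log axis) of the 8 troponin genes against day of differentiation, 1 library per point, with 95% counting intervals; open triangles stand at the level of 3 counts for libraries with 0 counts, and lines join each arm to the shared day 2 library. TNNT2, TNNI1 and TNNC1 lie higher on day 10 than on day 3 in all arms, TNNT1 drops after day 3, TNNI3 dips on day 5, and TNNT3 and TNNI2 stay at the floor or near it.

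TNNT2, the cardiac tropomyosin-binding subunit and a standard marker of cardiomyocytes, was near the floor until day 3. On day 3 its FPKM was 0.11 in NP-ctrl, 0.06 in the NP-IWP2 library and 0.33 in the passaged library. In the same order it reached 12.02, 14.6 and 15.2 on day 5 and 16.5, 34.4 and 39.4 on day 7. By day 10 the levels were 21.8, 42.8 and 55.5. The arms lay close together on day 5 and spread apart from day 7 on, with NP-ctrl lowest. From day 3 to day 10 the fitted difference was 8.03 on the log2 scale (SE 0.45, edgeR adjusted p = 4.57e-06).

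The highest TNNT2 level was that of the passaged library of day 10, followed by NP-IWP2 on day 10, passaged on day 7 and NP-IWP2 on day 7. Every neighbouring pair in this order differed beyond counting error down to passaged on day 5, which did not differ from NP-IWP2 on day 5. The largest step was between days 3 and 5. TNNT2 on day 5 was 110 times its day 3 level in NP-ctrl (64.3 to 208), 242 times in NP-IWP2 (111 to 659) and 46.4 times in passaged cells (32.9 to 67.6).

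Passaged cells were above NP-ctrl in TNNT2 on each of the 4 days. The ratio of FPKM was 3.02 on day 3 (1.55 to 6.24), 1.27 on day 5 (1.18 to 1.36) and 2.39 on day 7 (2.26 to 2.53). In the fit over all 4 days the difference was 1.17 on the log2 scale (SE 0.30, edgeR adjusted p = 0.0550), just short of the threshold of 0.05. DESeq2, which called 10.2% of all genes, called it (adjusted p = 0.00462). So did edgeR without the libraries of day 3 (adjusted p = 0.0183, 11.2% of all genes called). The call was also made by edgeR with no filter on low values, at a like difference of 1.18 but a smaller SE of 0.23. Over the other alternatives the adjusted p was between 0.0534 and 0.317, apart from the days 7 and 10 fit given further on. The excess of passaged cells over NP-IWP2 was 5.43 on day 3 (2.25 to 15.8), from 33 and 6 counts, and 1.14 on day 7 (1.10 to 1.19). The fitted difference of 0.57 between these arms (SE 0.29) did not pass the test (edgeR adjusted p = 0.459).

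TNNT2 shares exons with a long non-coding RNA on the same strand, ENSG00000286600. Of the 1165 bases of the MANE Select transcript of TNNT2, 1129 (96.9%) also belong to exons of that RNA. Its own counts ranged from 0 to 109, against 1 to 6200 for TNNT2, and were highest in passaged cells on day 5. How reads in the shared bases were assigned is not given in the sources used here, and its part in the TNNT2 values was not tested.

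TNNT1, the slow skeletal tropomyosin-binding subunit, went the opposite way. Its FPKM on day 3 was 32.7 in NP-ctrl, 19.2 in the NP-IWP2 library and 20.6 in the passaged library, and these were its 3 highest libraries. The values were 2.05, 1.00 and 1.24 on day 5 and 1.07, 0.41 and 0.44 on day 7. By day 10 the levels were 1.33, 1.01 and 0.16. NP-ctrl was the highest arm on every day. From day 3 to day 10 TNNT1 fell by 4.90 on the log2 scale (SE 0.45, edgeR adjusted p = 2.97e-05).

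On day 10 the passaged library held 5 TNNT1 counts, against 38 for NP-ctrl and 34 for NP-IWP2. The passaged level was 0.116 times that of NP-ctrl (0.0358 to 0.296) and 0.153 times that of NP-IWP2 (0.0467 to 0.393). On days 3, 5 and 7 the passaged and NP-IWP2 libraries did not differ in TNNT1 beyond counting error, with ratios of 1.07 (0.954 to 1.21), 1.24 (0.750 to 2.05) and 1.08 (0.477 to 2.44). Fitted over the 4 days, TNNT1 in passaged cells was at a log2 difference of -1.14 from NP-ctrl (SE 0.36, edgeR adjusted p = 0.0987). DESeq2 called this difference (adjusted p = 0.0199), as did edgeR with no filter on low values (adjusted p = 0.00884, with a smaller SE of 0.31).

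TNNT3, the fast skeletal tropomyosin-binding subunit, had 0 to 7 counts per library and 0 counts in 5 of the 15 libraries. Its highest count, 7, was in NP-ctrl on day 3. No pair of arms differed in TNNT3 beyond counting error on any day for which a ratio could be given.

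TNNI1, the slow skeletal inhibitory subunit that the embryonic heart uses, reached the highest counts of any member. Its FPKM was 4.11 in NP-ctrl, 2.17 in the NP-IWP2 library and 2.21 in the passaged library on day 3, and 39.4, 78.5 and 52.7 on day 5. The values were 53.5, 141 and 128 on day 7 and 47.7, 103 and 170 on day 10. NP-ctrl went from the highest arm on day 3 to the lowest from day 5 on. From day 3 to day 10 TNNI1 rose by 5.10 on the log2 scale (SE 0.59, edgeR adjusted p = 0.000113).

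The level of TNNI1 did not climb through to day 10 in every arm. Between days 7 and 10 it was 0.891 times its earlier level in NP-ctrl (0.857 to 0.927), 0.727 times in NP-IWP2 (0.710 to 0.744) and 1.32 times in passaged cells (1.30 to 1.35). In order of FPKM, passaged on day 10 stood first, then NP-IWP2 on day 7, passaged on day 7, NP-IWP2 on day 10 and NP-IWP2 on day 5, each apart from the next beyond counting error. NP-ctrl on day 7 and passaged on day 5, which followed, did not differ.

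The order of the arms in TNNI1 changed with day, and the fit over 4 days gave no call between them. The passaged library was at 0.536 times NP-ctrl on day 3 (0.456 to 0.628), 1.34 times on day 5 (1.29 to 1.39), 2.40 times on day 7 (2.32 to 2.47) and 3.56 times on day 10 (3.45 to 3.68). Against NP-IWP2 it was at 1.02 times on day 3 (0.842 to 1.23), 0.671 times on day 5 (0.649 to 0.694), 0.909 times on day 7 (0.889 to 0.930) and 1.66 times on day 10 (1.62 to 1.69). The fitted differences of the passaged arm were 0.67 from NP-ctrl (SE 0.44, edgeR adjusted p = 0.476) and 0.11 from NP-IWP2 (SE 0.42, edgeR adjusted p = 0.951). Without day 3 the difference from NP-ctrl was 1.31 and was called (edgeR adjusted p = 0.0207).

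TNNI3, the adult cardiac inhibitory subunit, stayed low and dipped on day 5. It had 47 counts in NP-ctrl, 39 in the NP-IWP2 library and 15 in the passaged library on day 3, and 2, 4 and 4 on day 5. On day 7 there were 8, 47 and 29 counts, and on day 10 there were 24, 104 and 76, or an FPKM of 0.88, 3.23 and 2.46. All arms were lowest on day 5, and both NP-IWP2 and passaged cells were above NP-ctrl on days 7 and 10.

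From day 3 to day 10 the TNNI3 level was 0.617 times as high in NP-ctrl (0.361 to 1.03), 2.27 times in NP-IWP2 (1.56 to 3.37) and 4.56 times in passaged cells (2.60 to 8.54). The fitted difference between these days was 0.81 on the log2 scale (SE 0.59) and did not pass the test (edgeR adjusted p = 0.321). Without the NP-ctrl libraries it was 1.78 and passed (edgeR adjusted p = 0.0370), in a fit that called 5619 of 21206 genes. No other alternative fit called TNNI3 between these days. In the order of all 15 libraries no neighbouring pair differed beyond counting error.

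TNNI3 was lower in passaged cells than in either static arm on day 3, at 0.379 times NP-ctrl (0.197 to 0.690) and 0.379 times NP-IWP2 (0.194 to 0.704). On day 10 it was 2.80 times NP-ctrl (1.75 to 4.64), and its ratio to NP-IWP2 of 0.761 had an interval from 0.558 to 1.03. A readthrough gene, ENSG00000267110, shares 479 of the 843 bases of the MANE Select transcript of TNNI3 (56.8%) and had 0 counts in all 15 libraries. How reads in these shared bases were assigned was not tested, and the level of TNNI3 per length relative to other genes depends on it.

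TNNI2, the fast skeletal inhibitory subunit, had 0 counts in 12 of the 15 libraries. It had 1 count on day 0 and 2 counts in NP-ctrl on each of days 7 and 10.

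TNNC1, the calcium sensor of cardiac and slow muscle, had the largest fitted difference of the 6 members tested between passaged cells and each static arm over the 4 days. Its FPKM on day 3 was 3.18 in NP-ctrl, 0.91 in the NP-IWP2 library and 9.54 in the passaged library, followed by 9.23, 8.67 and 33.5 on day 5. The values were 31.2, 161 and 531 on day 7 and 33.4, 78.4 and 359 on day 10. Passaged cells had the highest level on each of the 4 days. The level on day 3 was already 17.0 times that of day 2 in passaged cells (9.62 to 32.6), against 5.66 times in NP-ctrl (3.07 to 11.2) and 1.62 times in NP-IWP2 (0.705 to 3.73).

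Against NP-ctrl, TNNC1 in passaged cells was 3.00 times as high on day 3 (2.21 to 4.13), 3.63 times on day 5 (3.05 to 4.34), 17.0 times on day 7 (15.5 to 18.7) and 10.7 times on day 10 (9.82 to 11.8). Against NP-IWP2 it was 10.5 times as high on day 3 (6.06 to 19.7), 3.86 times on day 5 (3.20 to 4.67), 3.31 times on day 7 (3.17 to 3.45) and 4.58 times on day 10 (4.32 to 4.85). The difference from NP-ctrl was therefore greater on the later days, whereas that from NP-IWP2 was greatest on day 3, where NP-IWP2 had 14 counts.

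TNNC1 was the 1 of the 6 tested members called for a higher level in the passaged arm than NP-ctrl over the 4 days, where 1.64% of all genes tested were called higher and 4.40% were called in either direction. The fitted difference was 2.69 on the log2 scale (SE 0.53, edgeR adjusted p = 0.0173). The call was lost with limma on log2(FPKM + 1) (adjusted p = 0.0618) and on log2(FPKM + 0.1) (0.0624), without day 5 (edgeR adjusted p = 0.0774), without day 7 (0.0880), without day 10 (0.0973), and with only the libraries of these arms in the fit (0.0889). Over these alternatives the difference stayed between 2.25 and 3.01, and without day 3 the call held at 3.17 (edgeR adjusted p = 0.00219).

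Against NP-IWP2 the fitted TNNC1 difference was 2.18 (SE 0.49, edgeR adjusted p = 0.0644). No member passed in the fit of all 12 libraries with the filter, where edgeR called 1.33% of all genes and TNNC1 alone among the members had an unadjusted p under 0.05. TNNC1 was called by DESeq2 (adjusted p = 0.000399), in a fit that called 4.22% of all genes. It was also called by edgeR with no filter (difference 2.19 with a smaller SE of 0.26, adjusted p = 4.96e-10, 1368 of 41457 genes called). The same held without day 3 (edgeR adjusted p = 0.0296, 3.18% of all genes called) and with only the libraries of these arms (0.0114, 163 of 21206 genes called). Limma called no member, and edgeR did not call TNNC1 with other size factors or without day 5, day 7 or day 10. In the spread of TNNC1 levels, passaged on day 7 stood first, then passaged on day 10, NP-IWP2 on day 7 and NP-IWP2 on day 10, each beyond counting error of the next. Passaged on day 5 came next and did not differ from NP-ctrl on day 10 or on day 7.

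TNNC1 peaked on day 7 in the passaged and NP-IWP2 arms. From day 7 to day 10 its level was 0.676 times as high in passaged cells (0.654 to 0.698), 0.488 times in NP-IWP2 (0.458 to 0.521) and 1.07 times in NP-ctrl (0.943 to 1.22). Over the same days TNNT2 was 1.41 times as high in passaged cells (1.36 to 1.47), so the genes of these subunits did not move in parallel. The TNNC1 increase from day 3 to day 10 was 4.89 on the log2 scale in the fit (SE 0.66, edgeR adjusted p = 0.000290).

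TNNC2, the fast skeletal calcium sensor, had few counts throughout. It had 24 counts on day 0, 6 on day 1 and 11 on day 2, then 10, 5 and 5 on day 3 in NP-ctrl, NP-IWP2 and the passaged arm. In the same order it had 2, 10 and 9 on day 5, 5, 8 and 25 on day 7, and 0, 12 and 21 on day 10. Passaged cells were above NP-ctrl on day 7, by 4.42 times (1.66 to 14.8), and above NP-IWP2 on that day, by 3.37 times (1.47 to 8.64). With the 0 counts of the NP-ctrl library of day 10 set to the floor of 3, passaged cells were 6.19-fold higher there, a value without a counting interval. The fitted difference of 1.78 between passaged cells and NP-ctrl (SE 0.88) did not pass the test (edgeR adjusted p = 0.306).

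**Figure D2:**
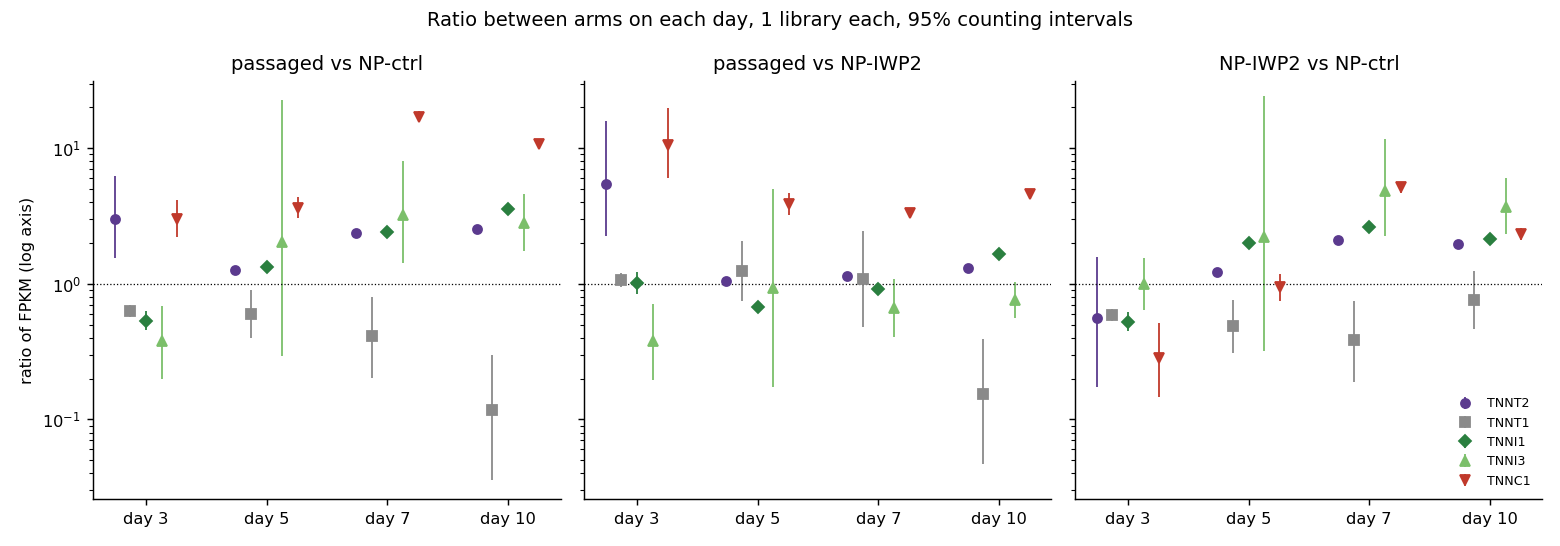
Ratio of FPKM between arms (log axis) on days 3, 5, 7 and 10 for 5 troponin genes, 1 library per arm and day, with 95% counting intervals and a dotted line at 1. TNNC1 lies above the line on every day in both comparisons of passaged cells, while TNNI1 crosses it, from 0.536 to 3.56 against NP-ctrl.

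IWP2 without passaging gave no call for any member in the fit over 4 days, in which 4 genes, 0.0189% of all tested, were called by edgeR, 0.00943% in each direction. Among the members TNNT1 had an unadjusted edgeR p under 0.05, with a log2 difference of -0.87 (SE 0.35), and neither DESeq2 nor limma called a member. The NP-ctrl libraries are those of the comparison with passaged cells. The ratios of TNNC1 and TNNI1 turned with day. TNNC1 in NP-IWP2 was 0.286 times NP-ctrl on day 3 (0.147 to 0.518), 0.940 times on day 5 (0.745 to 1.18), 5.15 times on day 7 (4.67 to 5.68) and 2.35 times on day 10 (2.12 to 2.60). TNNI1 likewise went from 0.527 times on day 3 (0.448 to 0.618) to 2.64 times on day 7 (2.56 to 2.72).

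On days 7 and 10 alone, TNNT2, TNNI1, TNNI3 and TNNC1 were called higher than in NP-ctrl both in NP-IWP2 and in passaged cells by edgeR. These fits called 4.98% and 19.0% of all genes, and both share the NP-ctrl libraries. In NP-IWP2 the log2 differences were 1.05 for TNNT2 (edgeR adjusted p = 0.0134), 1.30 for TNNI1 (0.0266), 2.07 for TNNI3 (0.0313) and 1.83 for TNNC1 (0.0137). In passaged cells they were 1.45 (edgeR adjusted p = 0.000876), 1.71 (0.00290), 1.70 (0.0253) and 3.87. Between passaged cells and NP-IWP2 on these days TNNC1 was called, at 2.05 (edgeR adjusted p = 0.00581), in a fit that called 5.60% of all genes.

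**Figure D3:**
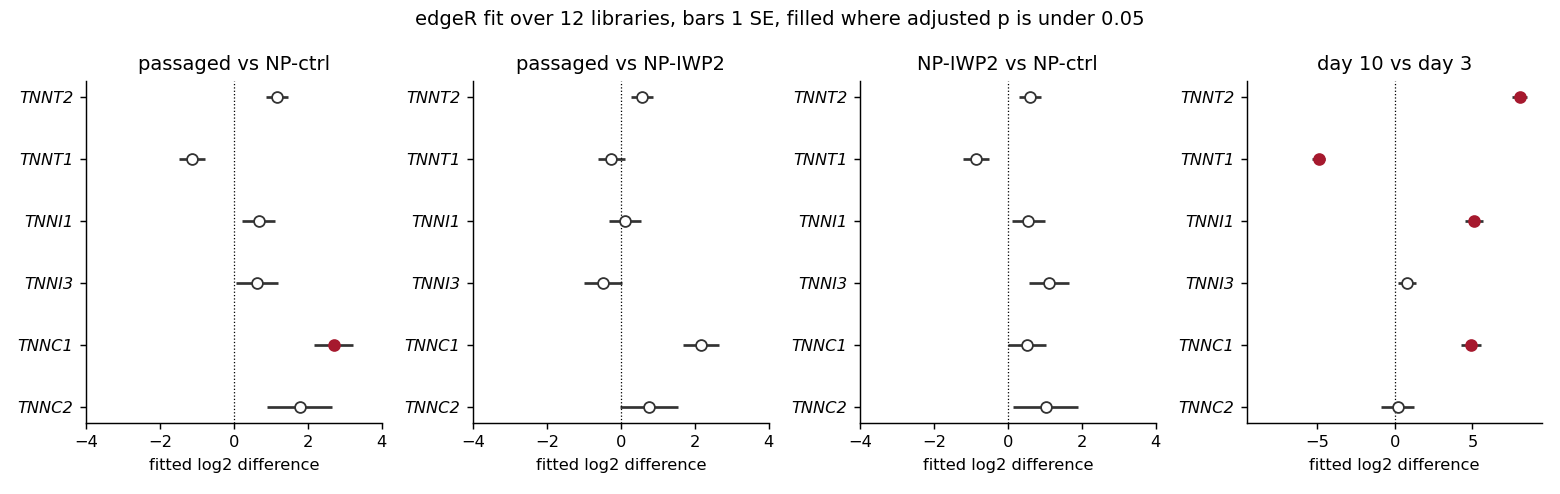
Fitted log2 difference (horizontal axis) of the 6 troponin genes past the filter in 4 comparisons over the 12 libraries of days 3 to 10; bars are 1 SE and filled points have an edgeR adjusted p under 0.05. In the first 3 panels TNNC1 against NP-ctrl is the only filled point, and between days 3 and 10 TNNT2, TNNI1 and TNNC1 are filled to the right and TNNT1 to the left.

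The forms of each subunit were next compared within libraries. For the inhibitory subunit the ratio of the FPKM of TNNI3 to that of TNNI1 was 8.19 on day 0 (5.16 to 13.3), 10.1 on day 1 (5.76 to 18.4) and 18.8 on day 2 (10.0 to 38.4). On day 3 it was 0.346 in NP-ctrl, 0.656 in the NP-IWP2 library and 0.244 in the passaged library. On day 5 it was 0.00159, 0.00177 and 0.00244, from 2, 4 and 4 TNNI3 counts. The slow skeletal form thus held nearly all of the inhibitory subunit RNA by day 5 in each arm.

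The cardiac form regained some share after that. TNNI3 to TNNI1 was 0.00554 in NP-ctrl, 0.0101 in the NP-IWP2 library and 0.00741 in the passaged library on day 7, against 0.0184 (0.0118 to 0.0274), 0.0315 (0.0257 to 0.0382) and 0.0145 (0.0114 to 0.0181) on day 10. The passaged ratio was below that of NP-IWP2 on day 3, at 0.373 times (0.186 to 0.716), and on day 10, at 0.459 times (0.337 to 0.624). On days 5 and 7 the interval held 1. Over the 4 days the mean log2 difference between these arms was -0.63 (SD 0.84, n = 4 days), lower on 3 of 4 days, with an exact two-sided sign-flip permutation p of 0.375. The smallest p that 4 days allow is 0.125, so this test cannot pass 0.05. With lengths of MANE Select transcripts in place of exonic lengths, the day 10 ratios were 0.0360, 0.0617 and 0.0283. Those of day 3 were 0.677, 1.285 (0.890 to 1.81) and 0.479 with these lengths, so the NP-IWP2 interval of that day held 1.

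For the tropomyosin-binding subunit the ratio of TNNT1 to TNNT2 in FPKM crossed from far above 1 to far below it. It was 247 on day 2 (133 to 517). On day 3 it was 300 in NP-ctrl (175 to 565), 317 in the NP-IWP2 library (145 to 868) and 62.7 in the passaged library (44.1 to 91.9). The values were 0.170, 0.0684 and 0.0811 on day 5, and had reached 0.0610, 0.0237 and 0.00279 by day 10. With MANE Select lengths the ratio was 74.7 on day 2, those of day 3 were 90.8, 95.95 and 19.0, and those of day 10 were 0.0185, 0.00717 and 0.000846. The change from the slow skeletal to the cardiac form took place between days 3 and 5 in all arms. The size of these ratios depends on how reads in the bases that TNNT2 shares with ENSG00000286600 were assigned, which was not tested.

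Passaged cells had the lower ratio of TNNT1 to TNNT2 than NP-ctrl on each of the 4 days. The mean log2 difference was -2.58 (SD 1.40, n = 4 days), with an exact two-sided sign-flip permutation p of 0.125, the smallest possible, and of 0.450 after adjustment over 9 such tests. On single days the passaged ratio was 0.209 times that of NP-ctrl on day 3 (0.10 to 0.412), 0.476 times on day 5 (0.312 to 0.719), 0.173 times on day 7 (0.0844 to 0.337) and 0.0458 times on day 10 (0.0141 to 0.117). Against NP-IWP2 it was 0.198 times on day 3 (0.0673 to 0.483) and 0.118 times on day 10 (0.0360 to 0.303), while on days 5 and 7 the interval held 1.

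For the calcium-binding subunit TNNC2 to TNNC1 was 2.69 on day 0 (1.30 to 5.91), 2.02 on day 1 (0.479 to 9.74) and 1.14 on day 2 (0.462 to 2.76). On day 10 it was 0.0114 in the NP-IWP2 library (0.00588 to 0.0200) and 0.00454 in the passaged library (0.00281 to 0.00695). In NP-ctrl it was at most 0.00788 on that day, with TNNC2 set to the floor of 3 counts and no counting interval. The passaged ratio was 0.198 times that of NP-ctrl on day 3 (0.0513 to 0.673) and 0.260 times on day 7 (0.0971 to 0.873). On day 5 the quotient of 1.27 had an interval from 0.260 to 12.2, with 2 TNNC2 counts in NP-ctrl, and on day 10 the 0 counts of NP-ctrl left the direction undetermined.

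The fast skeletal genes TNNT3 and TNNI2 were at or near the floor beside their partners. On day 10, with each set to the floor of 3 counts, TNNT3 was at most 0.00131 times TNNT2 in passaged cells, and TNNI2 was at most 0.00107 times TNNI1. Of the regulators of skeletal muscle in the marker list, MYOD1, MYF5 and MYOG had at most 2, 1 and 5 counts in any library. MYF6 and PAX3 reached 28 counts each and PAX7 reached 395, in NP-IWP2 on day 3. Of 21 skeletal muscle markers 8 passed the filter, and between days 3 and 10 CKM and CASQ1 were called higher and PAX7 lower, where 35.0% of all genes were called. Their summed FPKM ran from 7.40 to 197 in passaged cells, from 9.56 to 73.6 in NP-IWP2 and from 7.90 to 22.0 in NP-ctrl, and 189 of the 197 was CKM, a creatine kinase that heart muscle also makes.

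**Figure D4:**
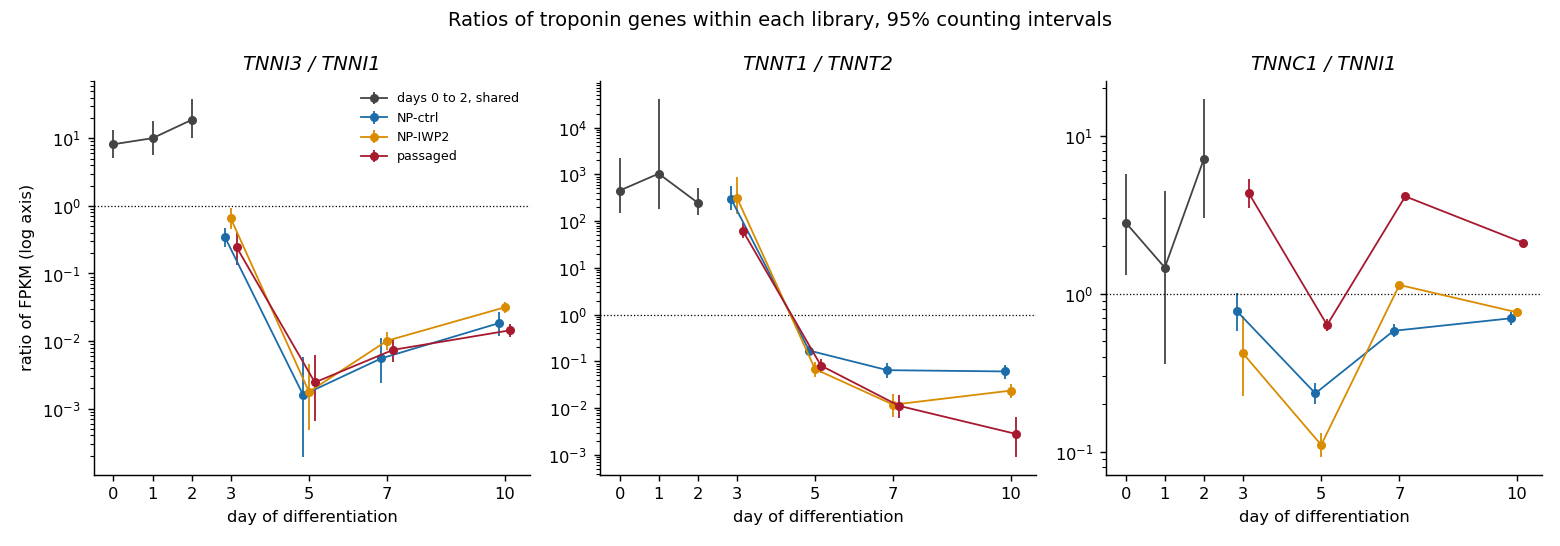
Ratio of FPKM (log axis) of TNNI3 to TNNI1, TNNT1 to TNNT2 and TNNC1 to TNNI1 in each of the 15 libraries against day of differentiation, with 95% counting intervals and a dotted line at 1. The ratio of TNNT1 to TNNT2 crosses 1 between days 3 and 5 in all arms, and that of TNNC1 to TNNI1 is highest in passaged cells on days 3, 5, 7 and 10.

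The balance between different subunits, set side by side after the values were seen, differed between arms. TNNC1 to TNNI1 in FPKM was 4.33 in passaged cells on day 3 (3.50 to 5.35), 0.635 on day 5 (0.582 to 0.692), 4.14 on day 7 (4.03 to 4.25) and 2.11 on day 10 (2.05 to 2.17). In NP-ctrl it was 0.774, 0.234, 0.583 and 0.70 on these days, and in NP-IWP2 it was 0.420, 0.111, 1.14 and 0.764. Passaged cells had the highest ratio on each of the 4 days, and all arms had their lowest on day 5. On day 10 the ratio in passaged cells was 3.02 times that of NP-ctrl (2.74 to 3.33) and 2.76 times that of NP-IWP2 (2.60 to 2.94), and these quotients do not depend on gene length.

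As a share of the summed FPKM of TNNC1, TNNI1 and TNNT2, TNNC1 made up 61.4% in passaged cells on day 10, compared with 32.4% for NP-ctrl and 35.0% for NP-IWP2. TNNI1 made up 29.1%, 46.4% and 45.9%, and TNNT2 9.5%, 21.2% and 19.1%. These shares depend on the length used. They also depend on how reads were assigned in the 1129 MANE Select bases that TNNT2 shares with ENSG00000286600, which was not tested. With the lengths of the MANE Select transcripts, 1165 bases for TNNT2 against 7342 exonic bases, TNNT2 made up 30.3%, 54.6% and 51.2% and stood above TNNI1 in each arm on day 10, at 18.1%, 23.3% and 24.0%. TNNC1 made up 51.6%, 22.0% and 24.8% on that scale and remained higher in the passaged library on each of the 4 days. By counts alone TNNC1 to TNNI1 was 0.320 in passaged cells on day 10, and with MANE Select lengths the ratio was 2.85. Together the 8 genes took 0.210% of all counts in passaged cells on day 10, 0.119% in NP-IWP2 and 0.0562% in NP-ctrl.

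**Figure D5:**
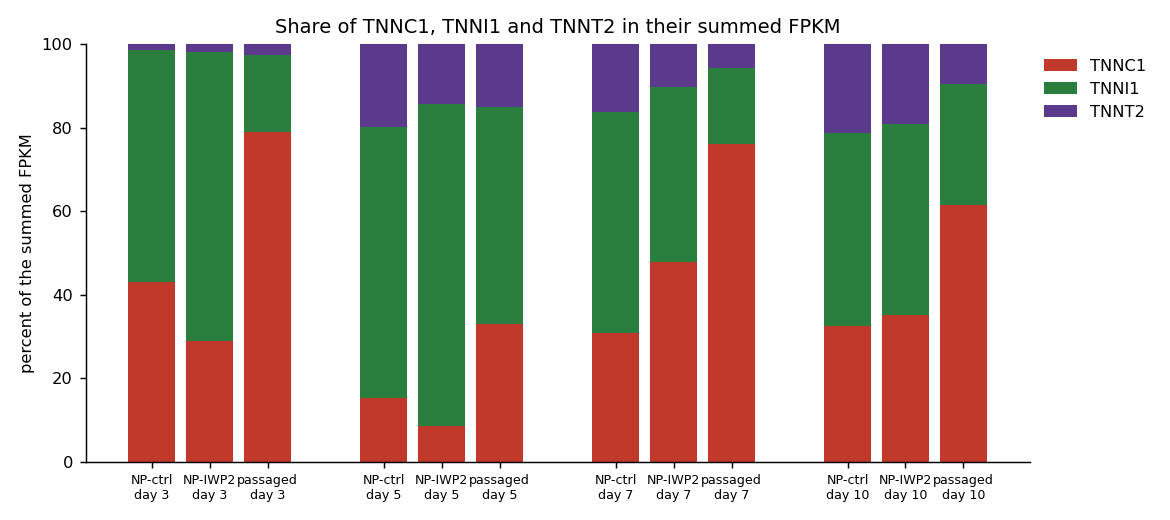
Percent of the summed FPKM of TNNC1, TNNI1 and TNNT2 (vertical axis) held by each gene, as stacked bars for the 12 libraries of days 3 to 10. The TNNC1 part is largest in the passaged library of each day, from 33.0% on day 5 to 79.0% on day 3, while the order of TNNT2 and TNNI1 depends on the length used.

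The genes most like each member were named by Pearson correlation of log2(FPKM + 1) over the 15 libraries, as a description, since all points share the same cultures. For TNNI1 they were MYL7, an atrial myosin light chain (r = 0.991), EDNRA, an endothelin receptor (0.991), and ALDH5A1 (0.986). For TNNT2 they were MSRB3 (r = 0.986), POPDC2 (0.984) and ACTN2, the alpha-actinin of the Z-disc (0.983). For TNNC1 they included JPH2, which ties the sarcoplasmic reticulum to the cell membrane (r = 0.971), and HACD1 (0.968). For TNNT1 they included CABYR (r = 0.962) and ADCY8 (0.957).

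TNNI3 was most like TRDN, which encodes triadin of the calcium release complex (r = 0.913), ACAA2, an enzyme of fatty acid oxidation (0.900), and IRX4, a transcription factor of the ventricle (0.896). TNNC2 was most like ACOT8 (r = 0.870), NDUFA8 (0.850) and SMAP1 (0.846). ACOT8 lies 7975 bases from TNNC2 on the same strand and had 217 to 510 counts per library, against 0 to 25 for TNNC2. Whether reads of ACOT8 enter the TNNC2 counts was not tested.

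Members that are neighbours on a chromosome did not share a pattern in each case. TNNT2 and TNNI1, neighbours on chromosome 1, had r = 0.975 over the 15 libraries. TNNT1 and TNNI3, neighbours on chromosome 19, had r = 0.131. TNNT2 and TNNT1 had r = -0.955.

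The other genes of the thin filament were taken from a list of 16, of which 14 passed the filter. In passaged cells against NP-ctrl 1 of the 14 was called higher and 0 lower by edgeR, where 1.64% of all genes were called higher and 2.76% lower, with 5 at an unadjusted p under 0.05. DESeq2 called 3 higher and 0 lower, and limma called none. The called gene was ACTA1, skeletal alpha-actin, which was at an FPKM of 34.7 in passaged cells on day 10, 2.86 in NP-IWP2 and 1.06 in NP-ctrl, with a fitted log2 difference from NP-ctrl of 3.93 (SE 0.96, edgeR adjusted p = 0.0443). Leaving out day 5, 7 or 10 ended this call. The alpha-actin genes ACTA1, ACTA2 and ACTC1 encode near-identical proteins, and whether reads were split between them was not tested. The median difference of the 14 genes was 0.59, against 0.00 over all genes tested.

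Between days 3 and 10, 7 of the 14 thin filament genes were called higher and 0 lower by edgeR, where 17.9% of all genes were called higher and 17.1% lower, whereas DESeq2 called 8 higher and 2 lower and limma on log2(FPKM + 1) called 6 higher and 1 lower. The largest fitted changes were those of ACTA2, smooth muscle alpha-actin (8.38, SE 0.57), and ACTC1, cardiac alpha-actin (6.91, SE 1.05). NEBL, LMOD1, TPM1 and TMOD1 followed, with 3.76, 3.71, 3.58 and 3.48. TPM1 encodes the tropomyosin that the tropomyosin-binding subunit grips, and TMOD1 caps the pointed end of the filament. The median of the 14 genes was 2.18, against 0.04 over all genes.

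Markers of some cell types also differed between the arms. The summed FPKM of 11 cardiomyocyte markers on day 10 was 561 in NP-ctrl, 1872 in the NP-IWP2 library and 4623 in the passaged library. Of these 11, which hold no troponin gene, all were called higher on day 10 than on day 3 (17.9% of all genes), and 5 were called higher in the passaged arm relative to NP-ctrl (1.64% of all genes). The sum of 8 liver and endoderm markers on day 10 was 4305, 1256 and 19.0, and that of 8 epicardial and fibroblast markers was 1752, 496 and 29.5, in the same order, with 5 of each 8 called lower in the passaged arm relative to NP-ctrl (2.76% of all genes). The sum of 7 smooth muscle markers was 125, 89.8 and 105. That of 6 endothelial markers was 119, 120 and 121 on day 10, of which KDR alone was 93.0, 100.4 and 119. The endothelial sums of day 7 were 165, 111 and 31.8. The sum of 6 pluripotency markers on day 10 was 39.5, 36.9 and 63.6, of which TDGF1 was 0.98, 8.55 and 48.1. SOX2 was 0.06, 0.08 and 4.89, whereas LIN28A was 23.3, 18.8 and 8.99 and DPPA4 was 15.1, 9.45 and 1.68. POU5F1 and NANOG were at or below 0.03 in each arm. Of the 6, SOX2 alone was called for the passaged arm, at a log2 difference of 5.92 from NP-ctrl (SE 1.01, edgeR adjusted p = 0.00945). Against NP-IWP2 the SOX2 difference was 5.19 and was also called (SE 0.98, edgeR adjusted p = 0.0299). On day 0, before any differentiation, all 6 pluripotency markers were above 3 counts and summed to 1655, while the 11 cardiomyocyte markers summed to 2.46. In the passaged library of day 10 APOA2, FOXA2 and TCF21 had 0 counts among the liver, endoderm, epicardial and fibroblast markers. The part of these other cells in the troponin differences was not tested.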

How the data were processed

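The authors used Cutadapt 1.9.1 for trimming, HISAT2 2.0.1 for alignment and HTSeq 0.6.1 for counting per Ensembl gene, per the labels and the study's methods. Both units were used as deposited, raw counts and FPKM, each for 60605 genes. FPKM recomputed from the counts, exonic lengths and library totals differed from the deposited FPKM by at most 0.005. The build was not given in the sources used here. Of the genes, 60463 matched GENCODE release 44, 93.8% of these with identical coordinates, hence GRCh38. The use of strand in counting was not given.

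Members were found by symbol, and none was left out. The members and lists were chosen with earlier results of these data known. Effects of arm and day, as additive terms, were tested in the 12 libraries from day 3 onward with edgeR 4.0.16 under R 4.3.3 (quasi-likelihood, TMM). The 21206 genes reaching 1 FPKM in any library entered, and a Benjamini-Hochberg adjusted p over these genes below 0.05 made a call. Each edgeR SE was derived from the test, as the absolute log2 difference divided by the square root of the F statistic. Since labels name no separate cultures, p-values measure the spread over days or arms of 1 series. DESeq2 (version 1.42.0), limma (version 3.58.1) on log2(FPKM + 1) and on log2(FPKM + 0.1), other size factors, no filter, and fits leaving out days or arms were alternatives. The fits were tested on simulated data, with no difference between days and with either no arm effect or the same one on every day. These settings are simpler than the data, where levels and arm ratios changed with day. Ratios between single libraries carry exact 95% intervals derived from Clopper-Pearson limits, with a floor of 3 counts. Named genes were all members, the 3 protein-coding genes most correlated with each (some are not reported here), and at most the 6 called thin filament genes with the largest change per comparison. Skeletal regulators, KDR, the 6 pluripotency markers and the CKM, CASQ1, PAX7, SOX2 and SMTN calls were named after their values were seen.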

Additional observations from a re-analysis of the deposited data

Results flagged for a closer look

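Members whose ratio between the same arms lay beyond counting error below 1 on some day and above 1 on another were singled out. Each day had 1 library per arm, and the difference between days was not tested. TNNI1 in passaged cells against NP-ctrl went from 0.536 on day 3 to 3.56 on day 10. TNNI1 in NP-IWP2 against NP-ctrl went from 0.527 on day 3 to 2.64 on day 7. TNNI1 in passaged cells against NP-IWP2 went from 0.671 on day 5 to 1.66 on day 10. TNNI3 in passaged cells against NP-ctrl went from 0.379 on day 3 to 3.21 on day 7. TNNC1 in NP-IWP2 against NP-ctrl went from 0.286 on day 3 to 5.15 on day 7. Of these pairs, those against NP-ctrl share its libraries. TNNT2 was in no such pair.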

How the results depend on the processing

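Each arm and day had 1 library, so the depth of a library sets its counting interval and nothing here measures variation between cultures. The fits and the sign-flip tests pair arms by day, and the labels give no replicate numbers for any other pairing. Low counts of TNNI3, TNNC2, TNNT3 and TNNI2 limit what can be seen of them.

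The number of genes called for passaged against NP-ctrl (933) was 2150 with DESeq2, 2571 with no filter, 163 and 222 with limma (pseudocounts 1 and 0.1), 109 with only these arms, 4020 with days 7 and 10 only, and 133 to 2373 leaving out a day. For passaged against NP-IWP2 (282) it was 892, 1368, 6 and 21, 163, 1187, and 13 to 675 in the same order. For NP-IWP2 against NP-ctrl (4) it was 61, 372, 0 and 0 (996 genes at an unadjusted p under 0.05 with either limma fit), 277, 1055, and 0 to 35. For day 10 against day 3 (7423) leaving out a day or an arm gave 2235 to 7262, the lowest without NP-IWP2. Other settings stayed within 1.5 times. The causes were not tested.

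The ratios of passaged to NP-ctrl on day 10 were 2.08, 2.90 and 2.73 for TNNT2 under TPM, median-of-ratios scaling and per nuclear count, 2.92, 4.06 and 3.82 for TNNI1, and 8.80 and 12.3 under the former scalings for TNNC1. Against NP-IWP2 they were 1.11, 1.46 and 1.36 for TNNT2, 1.42, 1.87 and 1.74 for TNNI1, and 3.91 and 5.16 for TNNC1. No ratio beyond counting error changed sides of 1 under these scalings, which moved ratios by a factor of at most 1.22.

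Of 282 refits of members, 249 kept their direction and side of the threshold, 20 passed it anew, 6 lost the call and 7 turned direction, all of the latter for differences that were not called. These were TNNT1 and TNNI1 in passaged against NP-IWP2 without day 10 (0.20 and -0.22, with ranges of -0.50 to 0.20 and -0.22 to 0.34 over the days left out), TNNC1 in NP-IWP2 against NP-ctrl without day 7 (-0.14, range -0.14 to 1.13), and TNNC2 between days 3 and 10 with DESeq2 (-0.027), with limma at pseudocount 0.1 (-0.16), without NP-IWP2 (-0.42) and without passaged (-0.83, range -0.83 to 1.61 over the days or arms left out). The mean isoform differences between arms kept their sign without any 1 day, except TNNI3 to TNNI1 in passaged against NP-ctrl (-0.27 to 0.035) and TNNC2 to TNNC1 in NP-IWP2 against NP-ctrl (-0.12 to 1.19, with counts under 3 set to 3). Of 45 shares of TNNC1, TNNI1 and TNNT2 within a library, 35 moved beyond counting error with MANE Select lengths, a setting chosen after seeing the data.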
